A study of Mus musculus with 54 samples.

Results

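The genes described here are the 3 retinoid X receptor (RXR) genes Rxrg, Rxra and Rxrb, and 3 genes whose receptors pair with an RXR, Rara, Nr1h2 and Vdr. They were taken by name, and all 6 were listed in both tables of expression values, of 10990 genes listed in either table and 9985 in both. RNA was measured by Smart-seq2, which reads full-length transcripts from few cells, in group 2 innate lymphoid cells (ILC2s) of the small intestine of C57BL/6 mice aged 8 to 12 weeks, with the sexes pooled per the labels. In the culture experiment, cells of wild-type mice were kept with the growth factors IL-2 and IL-7, without or with the activating cytokine IL-25, for 4, 48 or 72 h, with 4 libraries in each of the 6 groups. In the genotype experiment, libraries titled nILC2 or iILC2, terms that the labels do not expand, came from CTRL mice, labelled wild type (WT), or KO mice, again with 4 libraries in each of the 4 groups, and all of them were labelled IL25, 48h. The series text gives the genotypes as Rxrg+/+ and Rxrg-/-, whereas the name of the authors' table reads cKO, which the labels do not explain. Which exons were deleted, whether a Cre line was used, and whether the libraries of a group came from separate animals or cultures is not given in the sources used here, so the p-values measure the spread between these libraries. The 14 ATAC-seq and CUT&Tag samples of the series were not analysed here.

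RXRs are nuclear receptors that bind DNA mostly as heterodimers, and they are the common partner of the receptors for retinoic acid, oxysterols, vitamin D, thyroid hormone and fatty acids. RXRα, RXRβ and RXRγ, encoded by Rxra, Rxrb and Rxrg, share a domain structure and can often stand in for each other, but are found in different tissues, RXRβ broadly and RXRγ mainly in muscle and brain. In the intestine, retinoic acid made from dietary vitamin A acts on epithelium and lymphocytes. The comparisons ask whether the other RXR genes, or the genes of the partner receptors, changed where Rxrg fell or was deleted.

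Per the RefSeq annotation of the mouse assembly GRCm38.p6, Rxrg lies on chromosome 1 at chr1:167598362-167639623, Rxra on chromosome 2 at chr2:27676445-27763319 and Rxrb on chromosome 17 at chr17:34031812-34038403. Rara lies at chr11:98927800-98974942, Nr1h2 at chr7:44549616-44553968 and Vdr at chr15:97854427-97908296. Annotated genes overlap Rara (Gm46294 and Gm22061) and Vdr (Gm33690 and Gm52171), so that some of their reads could belong to those models; none overlaps the RXR genes or Nr1h2. RXR heterodimers bind pairs of a 6-base core. The 250 bases before each annotated start were searched on both strands for the consensus AGGTCA, for the variant GGGTCA and for the variant AGTTCA, none of which overlaps another match below. Both windows of Rxrg and the downstream window of Rxra are shown. Those genes were chosen because they were called lower with IL-25 at 48 and 72 h (not Rxra at 4 h). The upstream window of Rxrb is shown because Rxrb was not called. The upstream Rxra window and the downstream Rxrb window, both without a match, are not printed. The printed windows do not test whether matches go with the calls. They are printed 5′ to 3′ on the plus strand, on which all 3 genes are read, with each match in capitals.
Rxrg, chr1:167598112-167598361, before the upstream start: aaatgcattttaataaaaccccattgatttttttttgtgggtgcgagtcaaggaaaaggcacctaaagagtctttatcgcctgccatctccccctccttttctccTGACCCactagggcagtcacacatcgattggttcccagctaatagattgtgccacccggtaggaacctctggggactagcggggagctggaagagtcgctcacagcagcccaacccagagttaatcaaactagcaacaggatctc
Rxrg, chr1:167618015-167618264, before the downstream start, within the gene: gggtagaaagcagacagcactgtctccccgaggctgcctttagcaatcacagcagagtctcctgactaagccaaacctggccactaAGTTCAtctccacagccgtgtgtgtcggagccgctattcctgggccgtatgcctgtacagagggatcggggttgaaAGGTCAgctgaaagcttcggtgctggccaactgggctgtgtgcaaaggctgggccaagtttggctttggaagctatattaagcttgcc
Rxra, chr2:27709042-27709291, before the downstream start, within the gene: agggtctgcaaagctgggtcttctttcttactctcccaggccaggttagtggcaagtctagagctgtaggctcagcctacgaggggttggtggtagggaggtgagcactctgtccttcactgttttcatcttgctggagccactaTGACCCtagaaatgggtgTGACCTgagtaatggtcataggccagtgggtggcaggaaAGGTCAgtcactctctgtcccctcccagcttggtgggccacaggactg
Rxrb, chr17:34031562-34031811, before the upstream start: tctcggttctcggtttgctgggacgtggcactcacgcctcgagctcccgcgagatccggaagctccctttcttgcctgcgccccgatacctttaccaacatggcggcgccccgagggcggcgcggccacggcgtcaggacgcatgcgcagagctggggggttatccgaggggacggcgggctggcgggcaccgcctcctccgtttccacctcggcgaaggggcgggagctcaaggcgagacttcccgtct

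Upstream of Rxrg, GGGTCA was found on the minus strand 145 bases before the upstream start. Before its downstream start, AGTTCA and AGGTCA were found on the plus strand at 164 and 88 bases. Rxra had 3 matches before its downstream start, at 105 and 87 bases on the minus strand and at 48 bases on the plus strand, and none before its upstream start. Neither Rxrb start, nor that of Nr1h2, had a match. Of the 4 Rara starts 1 had matches, and the Vdr start had 1. In all, 5 of the 12 annotated starts of these genes (41.7%) had at least 1 match, beside 32.9% of all 32851 mouse start windows of the same length. AGGTCA was present in 14.02% of those windows, GGGTCA in 11.6% and AGTTCA in 11.8%. A match describes these letters only, and the expression tables do not show which start was used.

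Expression is given as TPM, the share of a gene among all transcripts, which corrects for gene length, so levels can be set side by side between genes. Nr1h2, the oxysterol receptor LXRβ, had the highest level, 41.3 to 107 TPM over the 24 culture libraries, with a median rank at percentile 85.1 of the genes listed. Rara, a retinoic acid receptor, ranged from 9.02 to 40.5 TPM and Rxrb from 5.82 to 28.8 TPM. Rxrg had the widest range as a ratio, from 1.83 to 63.3 TPM in culture and from 0 to 18.4 TPM in the genotype experiment. Rxra never exceeded 3.40 TPM in either experiment, and Vdr, the vitamin D receptor, never exceeded 5.14 TPM. The changes of Rxra and Vdr are therefore changes of genes with few transcripts, whose fold is understated on the log2(TPM + 1) scale used for all log2 differences below.

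**Figure D1:**
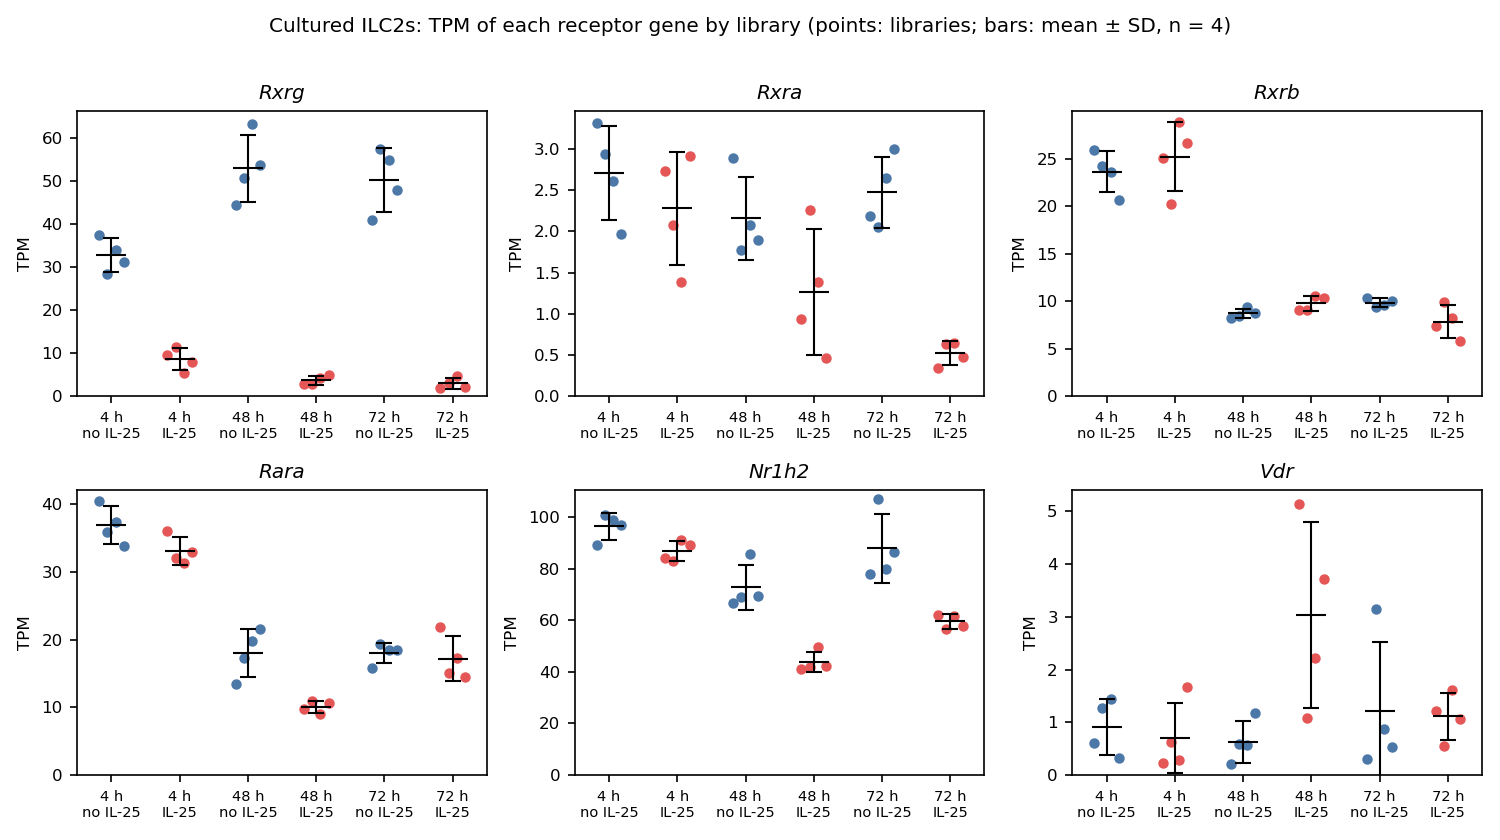
Each panel shows 1 gene in the 6 culture groups (x axis), in TPM (y axis, from 0), with a point per library and bars for the mean ± SD (n = 4; a bar that would pass below 0 stops at the axis). Rxrg libraries with IL-25 lie below all libraries without it at each time, whereas Rxrb and Rara differ mostly between 4 h and the later times.

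Rxrg fell with IL-25 at each of the 3 times. At 4 h its 4 libraries without IL-25 had 37.6, 28.4, 34.1 and 31.3 TPM, and those with IL-25 had 9.56, 11.5, 5.45 and 8.01 TPM. At 48 h the values were 44.6, 50.8, 63.3 and 53.8 TPM without IL-25 and 2.79, 2.85, 4.13 and 4.82 TPM with it. The groups did not overlap at either time. At 72 h the means were 50.4 ± 7.45 TPM without and 2.94 ± 1.26 TPM with IL-25 (SD, n = 4), a 17.1-fold lower level. The fold was 3.81 at 4 h and 14.6 at 48 h, and the log2 differences were -1.85 (SE 0.20), -3.55 and -3.75, with limma adjusted p = 7.98e-08, 2.13e-13 and 7.72e-14. A two-sided exact permutation test of the TPM gave p = 0.0286 at each time, the smallest that 4 against 4 libraries allow.

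Rxra, the scarcest RXR gene, was lower with IL-25 at the later times. At 72 h its libraries had 2.19, 2.05, 2.65 and 3.00 TPM without IL-25 and 0.34, 0.63, 0.65 and 0.47 TPM with it. The groups did not overlap, the level was 4.73-fold lower, and the log2 difference was -1.19 (95% interval -1.61 to -0.76, limma adjusted p = 3.87e-05). At 48 h the libraries had 2.89, 1.77, 2.08 and 1.89 TPM without and 0.94, 2.26, 1.38 and 0.46 TPM with IL-25, so that 1 library with IL-25 lay among those without it. The log2 difference was -0.53 (limma adjusted p = 0.0343). That call was lost under rescaling by the median of ratios (adjusted p = 0.0563), quantile normalization (0.161), array weights (0.0530) and a fit of the compared groups alone (0.0766). It was also lost without library 1 (0.112) or 3 (0.0555) of the group without IL-25, and without library 1 (0.0838) or 4 (0.175) of the group with it. At 4 h Rxra had means of 2.71 ± 0.569 and 2.28 ± 0.691 TPM, and the difference was not called (-0.19, interval -0.61 to 0.23, and 0.10 under quantile normalization).

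Rxrb, the RXR gene with the broadest expression in the body, was not called at any time. Its means without and with IL-25 were 23.6 ± 2.16 and 25.2 ± 3.64 TPM at 4 h, 8.71 ± 0.495 and 9.76 ± 0.770 TPM at 48 h, and 9.83 ± 0.455 and 7.84 ± 1.72 TPM at 72 h. The log2 differences were 0.08 (interval -0.19 to 0.36), 0.15 (-0.13 to 0.42) and -0.31 (-0.58 to -0.04), the last with limma adjusted p = 0.0539. Other settings moved Rxrb past the threshold in opposite directions, upward at 48 h under quantile normalization (0.36, adjusted p = 0.0186) and downward at 72 h with a pseudocount of 0.1 TPM (-0.35, adjusted p = 0.0464). Without library 2 of the IL-25 group at 72 h the Rxrb difference was -0.42 (adjusted p = 0.0123).

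Of the partner receptor genes, Rara and Nr1h2 were lower with IL-25 at 48 h. Rara had 13.4, 17.3, 19.8 and 21.6 TPM without IL-25 and 9.71, 10.96, 9.02 and 10.7 TPM with it, a log2 difference of -0.76 (limma adjusted p = 2.89e-05). Nr1h2 had 66.9, 69.2, 85.8 and 69.6 TPM without and 41.3, 41.8, 49.6 and 42.3 TPM with IL-25, a log2 difference of -0.72 (adjusted p = 4.52e-07). The groups of both genes did not overlap. At 72 h Nr1h2 was still lower, 59.6 ± 2.84 against 87.9 ± 13.4 TPM (-0.54, adjusted p = 3.13e-05), whereas Rara had 17.2 ± 3.33 against 18.1 ± 1.52 TPM and was not called (-0.08, interval -0.35 to 0.19, with values above 0 under both other scalings). At 4 h neither was called, with differences of -0.15 each.

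Vdr was higher with IL-25 at 48 h. It had 0.20, 0.59, 0.57 and 1.17 TPM without IL-25 and 5.14, 1.09, 2.22 and 3.71 TPM with it, so that 1 library with IL-25 lay within the range without it. The log2 difference was 1.23 (interval 0.53 to 1.92, limma adjusted p = 0.00388). At 72 h Vdr had 1.22 ± 1.31 and 1.11 ± 0.439 TPM without and with IL-25, and at 4 h 0.910 ± 0.536 and 0.703 ± 0.669 TPM; neither difference was called (0.06 and -0.19).

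Over the 3 times, 1, 5 and 3 of the 6 genes were called at 4, 48 and 72 h. Among all 10548 genes tested, 40.3%, 50.1% and 48.5% were called at these times, 26.9%, 28.7% and 33.2% as lower and 13.4%, 21.4% and 15.3% as higher. The libraries of the groups did not overlap for 1, 3 and 3 of the 6 genes, beside 35.9%, 44.2% and 43.3% of all genes. Of the 6 genes, Rxrg had the largest log2 difference at each time. The median log2 difference of all genes was -0.12, -0.09 and -0.20, and it lay between -0.04 and 0.03 under both other scalings, under which Rxrg differed by -1.69 and -1.68 at 4 h. Of the genes called, 33.3%, 42.7% and 31.5% were higher with IL-25, and 51.6%, 51.3% and 55.2% under the median of ratios. Genes used as markers of other cells moved with IL-25 as well. The listed erythroid genes (2 of 6, both alpha globins) summed to 479 to 553 TPM without and 8.71 to 19.4 TPM with IL-25 at 48 h, and the listed T cell genes (3 of 9, Cd3d, Cd4 and Cd8a not among them) to 204 to 255 and 63.7 to 79.7 TPM. The listed ILC3 markers (4 of 5, Il17a not among them) summed at 4 h to 22.8 to 57.8 TPM without and 234 to 519 TPM with IL-25. All 11 ILC2 markers were listed and summed at 48 h to 2927 to 3283 TPM without and 4399 to 4973 TPM with IL-25. They did not move together: the mean of the cytokine gene Il5 was 187 without and 2101 TPM with IL-25, whereas that of Gata3 was 723 and 295, of Id2 872 and 364, and of Il17rb 124 and 17.96 TPM. The part of these genes' cells in the receptor changes was not tested, and in bulk RNA fewer cells of a type and less RNA per cell cannot be told apart.

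Between 4 and 48 h of culture Rxrb and Rara fell without and with IL-25. Without it, Rxrb fell from 23.6 TPM at 4 h to 8.71 TPM at 48 h (-1.34, limma adjusted p = 3.27e-09), and Rara from 36.9 to 18.01 TPM (-1.01, adjusted p = 3.04e-07). Rxrg rose over the same time from 32.9 to 53.1 TPM (0.67, adjusted p = 0.00608), so that the RXR genes moved in opposite directions. Nr1h2 fell from 96.5 to 72.8 TPM (-0.41), a call that was lost under the median of ratios (-0.08, adjusted p = 0.442). Rescaling also moved the median of all genes from -0.28 to 0.01, and with it Rxrb to -1.02, Rara to -0.69 and Rxrg to 0.99. In all 4 of the 6 genes were called, beside 64.4% of all genes. With IL-25 all 6 were called between 4 and 48 h, beside 72.2% of all genes. The log2 differences were -1.28 for Rxrb, -1.62 for Rara and -0.98 for Nr1h2. Rxrg fell further from 8.63 to 3.65 TPM (-1.03), Rxra fell from 2.28 to 1.26 TPM (-0.57) and Vdr rose from 0.703 to 3.04 TPM (1.21). The Rxra call was lost under the median of ratios (-0.40, adjusted p = 0.0897), in the fit of the compared groups alone (0.0590), and without library 4 of the IL-25 group at 4 h (0.0572) or at 48 h (0.0959).

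Between 48 and 72 h without IL-25, limma called none of the 6 genes, beside 0.379% of all genes. Nr1h2 alone among the 6 had an unadjusted p under 0.05, at 72.8 and 87.9 TPM, and 1226 of the 10548 genes had such a p. With IL-25 2 of the 6 rose, beside 31.2% of all genes called and 13.4% called as higher. These were Rara, from 10.1 to 17.2 TPM (0.70, adjusted p = 0.000161), and Nr1h2, from 43.7 to 59.6 TPM (0.44, adjusted p = 0.000590). Rara and Nr1h2 did so without overlap, beside 32.2% of all genes. Rxra had 1.26 TPM at 48 h and 0.523 TPM at 72 h (-0.51, adjusted p = 0.0601) and Vdr 3.04 and 1.11 TPM (-0.85, adjusted p = 0.0584), neither called. Rxra passed with a pseudocount of 0.1 TPM (adjusted p = 0.0336), quantile normalization (0.0268), array weights (0.0301) and without library 4 at 48 h (0.0105), and Vdr with quantile normalization (0.0275), the compared groups alone (0.0427) and without library 2 at 48 h (0.0145). Tested directly, the IL-25 effect on Rara differed between 72 and 48 h by 0.68 (adjusted p = 0.0131), beside 14.7% of all genes called, whereas that on Nr1h2 did not pass (0.18, adjusted p = 0.430). Between 48 and 4 h the IL-25 effect differed for Rxrg, Rara, Nr1h2 and Vdr, 4 of the 6 genes, beside 27.9% of all genes.

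Ordered by level, Rxrg was highest without IL-25 at 48 and 72 h, which overlapped, then without IL-25 at 4 h, then with IL-25 at 4 h, and lowest with IL-25 at 48 and 72 h, which again overlapped. Each other step of that order was without overlap. For Rxra every neighbouring pair of groups overlapped. For Rxrb the gap lay between both groups at 4 h and all later groups, and for Rara it lay there and above the group with IL-25 at 48 h.

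**Figure D2:**
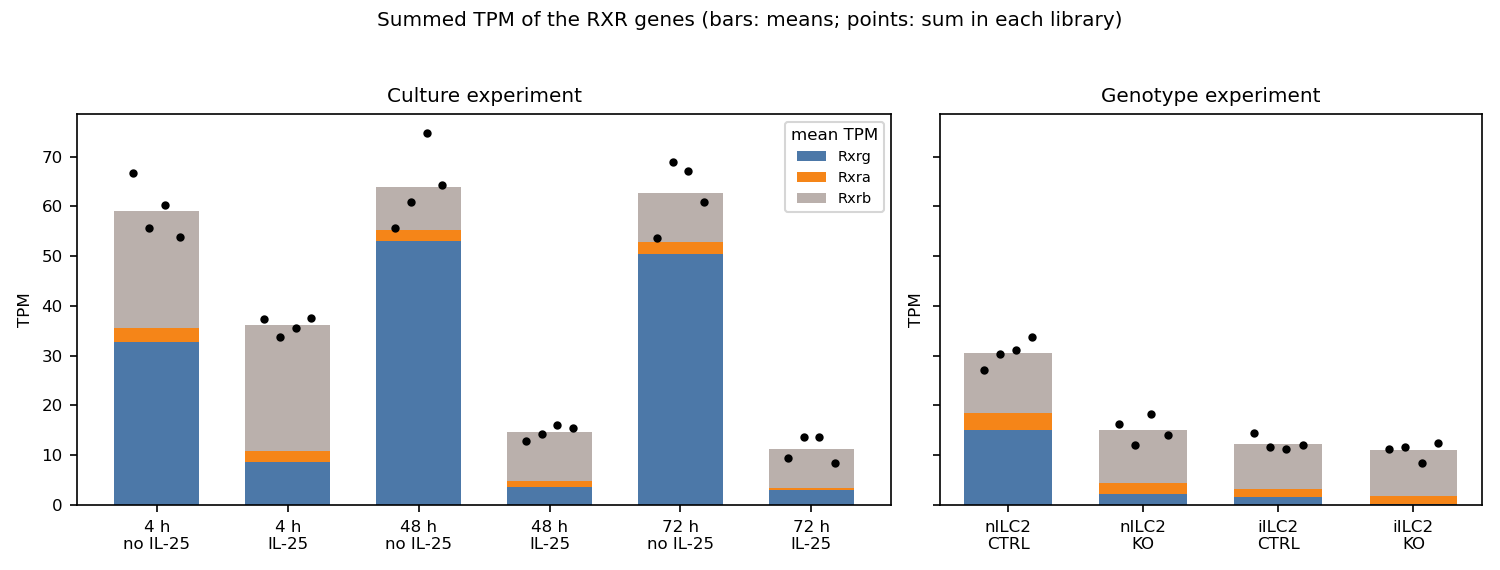
Stacked bars give the mean TPM of Rxrg, Rxra and Rxrb in each group (x axis; y axis in TPM, from 0), and points the sum of the 3 genes in each library. The sum lies between 53.6 and 74.7 TPM in all culture libraries without IL-25 and between 8.48 and 16.1 TPM in those with IL-25 at 48 and 72 h.

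Summed over the 3 RXR genes, cells without IL-25 held 59.1 ± 5.76 TPM at 4 h, 63.9 ± 8.01 TPM at 48 h and 62.7 ± 6.97 TPM at 72 h (SD, n = 4). The sum is a description, with no test. Rxrg made up 55.5%, 82.8% and 80.1% of it. With IL-25 the sum was 36.1 ± 1.75, 14.7 ± 1.45 and 11.3 ± 2.69 TPM, and Rxrg made up 24.04%, 24.6% and 25.5%. Rxrb was then the most abundant RXR transcript, at 69.7%, 66.7% and 69.9% of the sum, and Rxra made up 6.28%, 8.70% and 4.63%. The rise in the share of Rxrb came without a call of a rise in its own level. Rescaled by the median of ratios, the sums at 4 h were 48.0 TPM without and 32.5 TPM with IL-25.

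**Figure D3:**
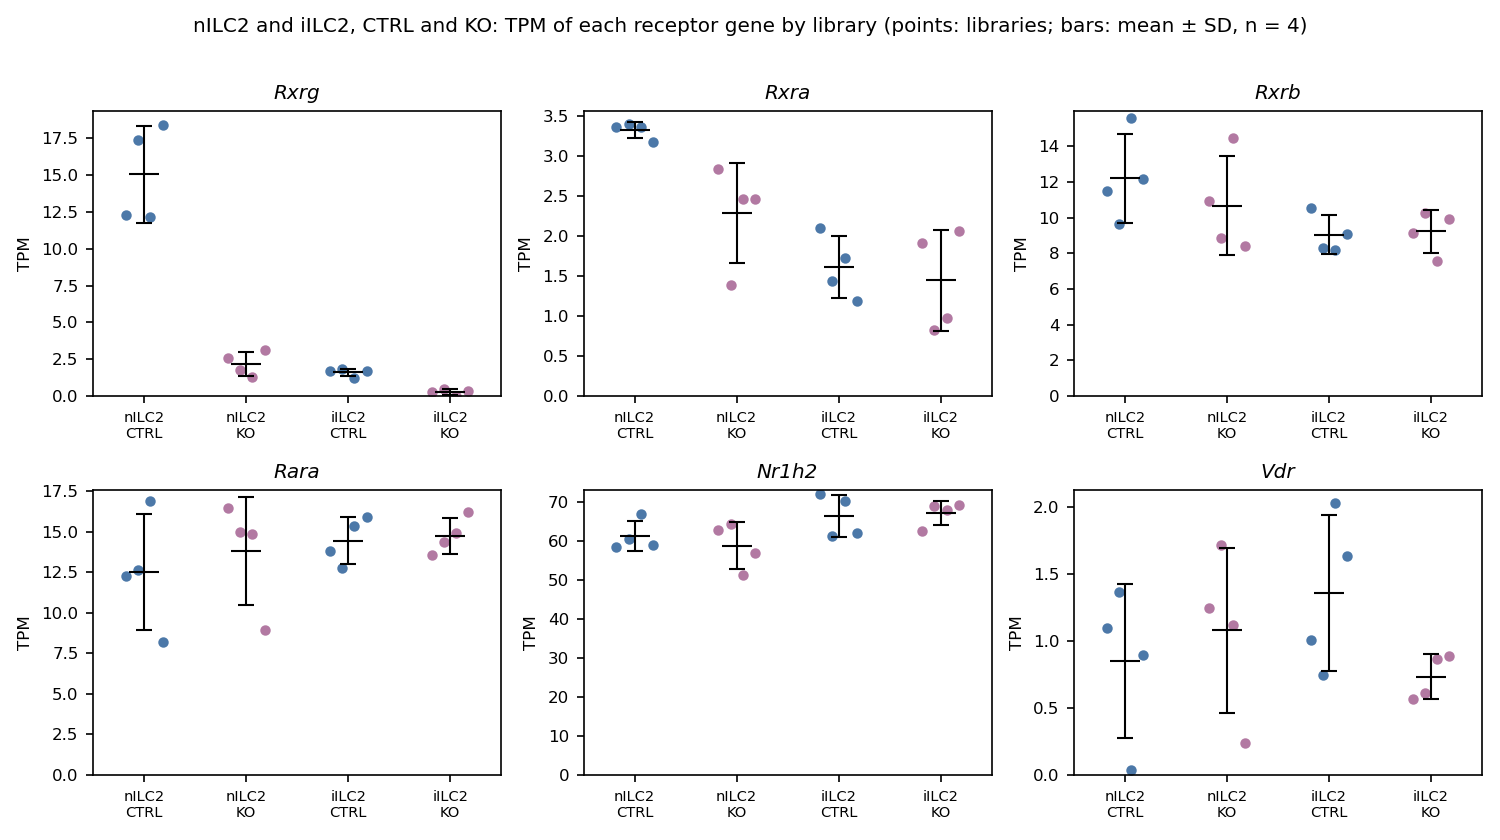
Each panel shows 1 gene in the 4 groups of the genotype experiment (x axis), in TPM (y axis, from 0), with a point per library and bars for the mean ± SD (n = 4). Rxrg is lower in KO than in CTRL in nILC2 and in iILC2, Rxra libraries of nILC2 KO lie below those of CTRL, and the groups of Rxrb, Rara and Nr1h2 overlap.

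In the genotype experiment, Rxrg itself was low in KO libraries, above 0 in 7 of 8 and listed at 0 in 1 iILC2 library. In nILC2 the CTRL libraries had 12.3, 17.4, 12.2 and 18.4 TPM and the KO libraries 2.58, 1.76, 1.27 and 3.12 TPM, a 6.90-fold lower mean without overlap (log2 difference -2.35, limma adjusted p = 1.24e-05). In iILC2 the CTRL libraries had 1.72, 1.83, 1.26 and 1.68 TPM, and the KO libraries 0.26, 0.48, 0 and 0.38 TPM. These groups did not overlap either, and the mean was 5.79-fold lower. The log2 difference was -1.04 with an unadjusted p of 8.83e-05, which did not pass adjustment over all genes (adjusted p = 0.445), and the two-sided exact permutation test of this single gene gave p = 0.0286 for nILC2 and for iILC2 alike. Tested against each other, the KO effects on Rxrg differed by 1.31 on the log2 scale (adjusted p = 0.157, and 0.0387 without nILC2 KO library 1), and 0.35 with a pseudocount of 0.1 TPM.

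Neither Rxra nor Rxrb was called in KO cells. In nILC2, Rxra had 3.37, 3.40, 3.37 and 3.18 TPM in CTRL, while KO had 2.84, 1.39, 2.46 and 2.47 TPM. All 4 KO libraries lay below all CTRL libraries, a ratio of 1.45. The log2 difference was -0.42 (interval -0.84 to 0.01) with an unadjusted p of 0.0532 and a limma adjusted p of 0.266, and it was not called in any alternative setting. Rxrb had 11.5, 9.63, 15.6 and 12.2 TPM in CTRL, while KO had 10.9, 8.89, 14.5 and 8.39 TPM, with overlap and a difference of -0.19 (interval -0.56 to 0.18). KO was lower than CTRL at each library number, though the labels state no pairing by number. With all libraries kept, no alternative called Rxrb, a replicate block among them (lowest limma adjusted p = 0.536). The upper ends of these intervals bound a rise in nILC2 KO at 0.01 for Rxra and 0.18 for Rxrb on the log2 scale.

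In iILC2, Rxra had 2.1, 1.44, 1.73 and 1.19 TPM in CTRL, while KO had 1.91, 0.83, 0.98 and 2.07 TPM, a difference of -0.12 (interval -0.55 to 0.30). Rxrb had 10.6, 8.32, 8.21 and 9.10 TPM in CTRL, while KO had 9.15, 10.3, 7.56 and 9.92 TPM, a difference of 0.02 (interval -0.35 to 0.39). Both genes overlapped between the genotypes. Averaged over nILC2 and iILC2, the limma KO difference was -1.70 for Rxrg (interval -2.01 to -1.39, adjusted p = 8.84e-06), -0.27 for Rxra (-0.57 to 0.03, unadjusted p = 0.0757, adjusted p = 0.476) and -0.08 for Rxrb (-0.34 to 0.18, adjusted p = 0.840). The average treats all libraries as independent. If nILC2 and iILC2 libraries came from the same mice, which the labels do not state, its intervals could be too narrow and its p-values too small.

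The partner receptor genes were not called in KO either. In nILC2, Rara had means of 12.5 ± 3.56 TPM in CTRL and 13.8 ± 3.33 TPM in KO (0.14, interval -0.26 to 0.54), Nr1h2 61.2 ± 3.95 and 58.7 ± 5.98 TPM (-0.06, interval -0.25 to 0.13), and Vdr 0.853 ± 0.575 and 1.08 ± 0.618 TPM (0.18, interval -0.39 to 0.74). In iILC2 the differences were 0.03 for Rara (interval -0.37 to 0.43), 0.02 for Nr1h2 (-0.17 to 0.21) and -0.41 for Vdr (-0.98 to 0.15). The narrowest bound was that of Nr1h2, the most abundant of these genes.

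In nILC2, 1 of the 6 genes was called, Rxrg, beside 1.54% of the 10069 genes tested, which is 155 genes. That number was 12 without CTRL library 4 and 1003 without KO library 1, and it left the range of 1.5 times the full value for each of the 8 libraries left out. The libraries did not overlap for 2 of the 6 genes, Rxrg and Rxra, beside 6.34% of all genes. In iILC2 limma called 0 of the 6 and 0% of all genes, with 328 genes at an unadjusted p under 0.05, and the libraries did not overlap for 1 of the 6, beside 2.94%. In the average of both, 1 of the 6 was called, beside 0.109%. The KO effects differed between iILC2 and nILC2 for 0 of the 6 genes and for 0% of all genes by limma, with 1059 genes at an unadjusted p under 0.05.

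Other measures are given here by genotype, and some of them overlapped between CTRL and KO. Y-linked transcripts were at 93.4 to 142 TPM in 3 of 4 CTRL and 2 of 4 KO libraries of nILC2 and of iILC2, and at 0.59 TPM or less in the others, although the labels give pooled sexes. The low libraries had the same numbers in nILC2 and in iILC2, CTRL 2 and KO 1 and 2. Same-numbered nILC2 and iILC2 libraries may thus come from the same mice, which the labels do not state. With a term for Y-linked expression, chosen after the data were seen, the Rxra difference in nILC2 was -0.39 (adjusted p = 0.324). The listed myeloid markers (3 of 7, Lyz2, Csf1r, Itgax and Cd14 not among them) summed to 8.23 to 22.3 TPM in nILC2 CTRL and 25.4 to 38.1 TPM in nILC2 KO, most of it Fcer1g at 10.1 and 28.4 TPM. The listed epithelial markers (2 of 7, Krt8 and Vil1 not among them) summed to 18.4 to 30.4 and 12.0 to 16.5 TPM, with means of 20.8 and 9.96 TPM for Epcam and 3.30 and 5.09 TPM for Krt18. The listed erythroid marker (1 of 6, Hba-a1) had means of 30.2 and 44.0 TPM in nILC2 CTRL and KO, with overlap, and 22.1 and 38.6 TPM in iILC2, without overlap. The ILC2 markers summed to 2606 to 2931 TPM in nILC2 CTRL and 1929 to 2628 TPM in nILC2 KO, and did not all move together. The means were 282 and 218 TPM for Gata3 and 286 and 209 TPM for Il17rb, without overlap. Those of Thy1 were 14.4 and 19.1 TPM and those of Icos 180 and 189 TPM, with overlap. In iILC2 the sums in CTRL and KO were 35.6 to 67.3 and 66.3 to 97.2 TPM for the myeloid, 13.6 to 16.5 and 8.74 to 12.5 TPM for the epithelial and 1261 to 1368 and 1281 to 1447 TPM for the ILC2 markers. Their part in the receptor values was not tested.

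**Figure D4:**
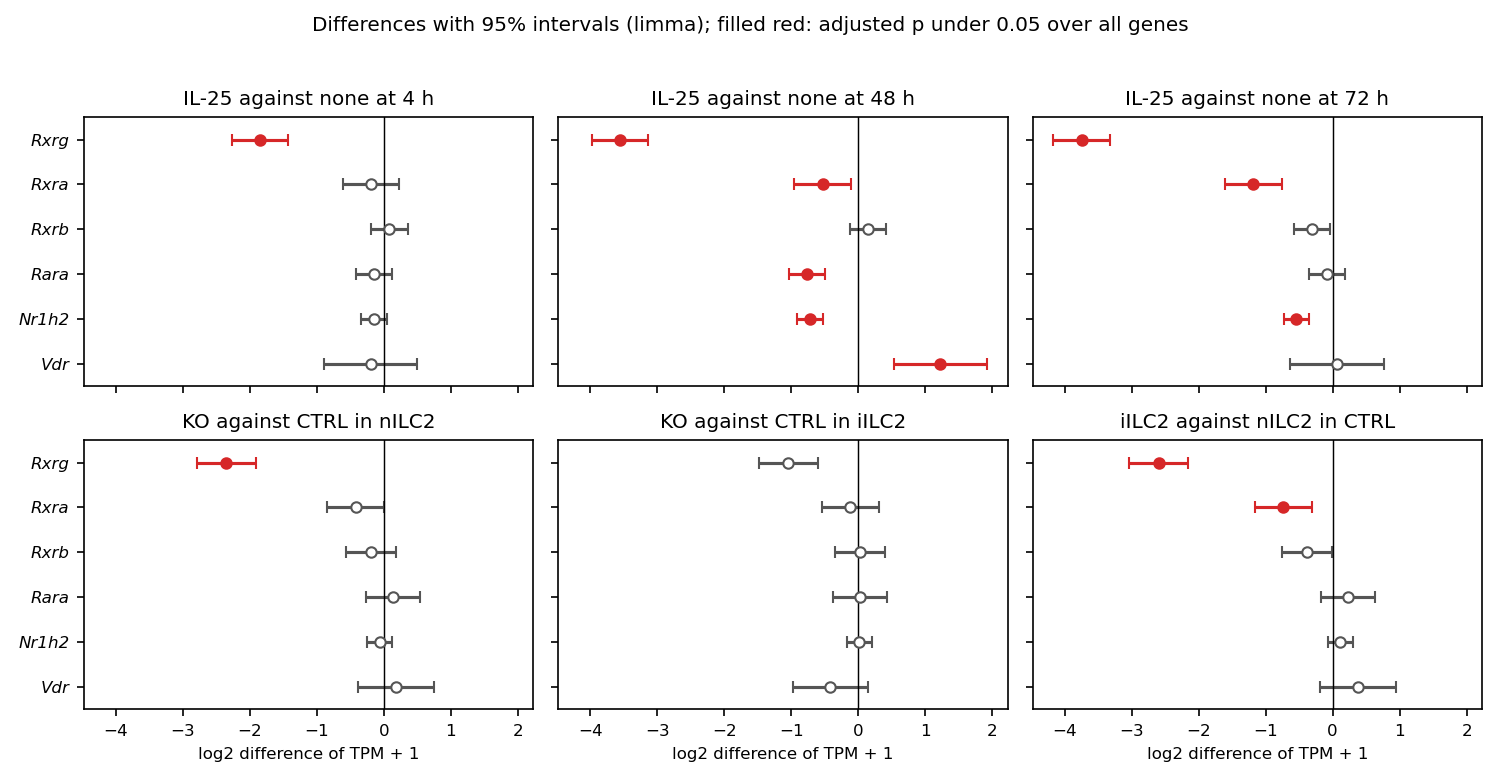
Log2 differences of TPM + 1 (x axis) of the 6 genes (y axis) in 6 comparisons, with 95% intervals from limma; filled red points passed an adjusted p of 0.05 over all genes. Rxrg lies below 0 in all 6 panels and is called in 5, Rxra is called lower in 3 of them, and no RXR gene is called higher in any.

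The level of Rxrg also differed between the cell groups. In CTRL it was 9.29-fold lower in iILC2 than in nILC2, at 1.62 ± 0.250 against 15.1 ± 3.29 TPM (log2 difference -2.60, limma adjusted p = 1.55e-08). Rxra was lower as well, at 1.62 ± 0.391 against 3.33 ± 0.101 TPM without overlap (-0.74, interval -1.16 to -0.31, adjusted p = 0.00584), a call that quantile normalization ended (-0.41, adjusted p = 0.123). Rxrb had 9.05 ± 1.08 against 12.2 ± 2.48 TPM and was not called (-0.38, adjusted p = 0.0857), although without nILC2 CTRL library 2 it was (-0.48, adjusted p = 0.0435). Rara, Nr1h2 and Vdr were not called, with differences of 0.23, 0.11 and 0.38. Thus 2 of the 6 genes were called and did not overlap, beside 45.5% of all genes called and 41.8% without overlap. The ILC2 markers summed to 1261 to 1368 TPM in iILC2 CTRL, below the nILC2 CTRL range, and their part was not tested. They did not move together between nILC2 CTRL and iILC2 CTRL. The means were 755 and 101 TPM for Id2 and 313 and 25.9 TPM for Il7r. Those of Thy1 were 14.4 and 32.2 TPM, and those of Icos 180 and 191 TPM, with overlap.

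In KO, Rxrg was still 7.79-fold lower in iILC2 than in nILC2, at 0.280 ± 0.207 against 2.18 ± 0.826 TPM (-1.29, adjusted p = 0.000118). Rxra had 1.45 ± 0.633 against 2.29 ± 0.626 TPM, with overlap, and was not called (-0.44, adjusted p = 0.107; 0.0388 without nILC2 KO library 2). It was lower in iILC2 in 4 of 4 same-numbered pairs, and with the replicate number as a block the adjusted p was 0.0899. Here 1 of the 6 genes was called, beside 31.4% of all genes, and it did not overlap, beside 30.6%. The levels of Rxrg in nILC2 KO and iILC2 CTRL, 2.18 and 1.62 TPM, overlapped.

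The RXR sum in nILC2 was 30.6 ± 2.703 TPM in CTRL and 15.1 ± 2.697 TPM in KO, and Rxrg made up 49.0% and 14.9% of it. In iILC2 it was 12.3 ± 1.43 and 10.96 ± 1.67 TPM, with 13.3% and 2.38% from Rxrg. Rxrb made up 40.0%, 70.05%, 73.6% and 84.6% in nILC2 CTRL, nILC2 KO, iILC2 CTRL and iILC2 KO. Cells with IL-25 in culture and KO cells thus both held mostly Rxrb transcripts, at 7.84 to 10.7 TPM on average in nILC2 KO, both iILC2 groups and the IL-25 cultures of 48 and 72 h; the 2 tables were normalized separately.

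Receptors of the RXR partner list moved with IL-25 in both directions, and none was called in KO. Of 16 partner genes, 9 were listed in the culture table, with Rara, Nr1h2 and Vdr among them, and 1, 3 and 2 rose and 3, 3 and 2 fell at 4, 48 and 72 h, with medians of -0.15, -0.12 and 0.06 beside -0.12, -0.09 and -0.20 over all genes. Of all genes, 40.3%, 50.1% and 48.5% were called in either direction at these times. Nr4a1, an immediate-early orphan receptor, rose at 4 h from 42.1 to 170 TPM (2.03), and Pparg, a fatty acid receptor, rose at 48 h from 24.2 to 65.6 TPM (1.39). At 4 h Pparg was lower with IL-25, at 10.2 against 14.2 TPM (-0.42, limma adjusted p = 0.0346). Rarg, the third retinoic acid receptor with Rara and Rarb, fell at 4 h from 8.31 to 2.67 TPM (-1.35). Rarb and Nr1h3 were not listed. Among the genotype libraries 7 were listed, 0 were called in either KO comparison (0 and 2 at an unadjusted p under 0.05, medians 0.14 and 0.07), and 4 fell in iILC2 against nILC2 of CTRL mice, among them Nr4a1 from 60.0 to 2.05 TPM and Pparg from 10.6 to 5.47 TPM. In that comparison of CTRL mice 45.5% of all genes were called in either direction. Pparg in KO was 13.5 against 10.6 TPM in nILC2 and 8.64 against 5.47 TPM in iILC2 (mean of both 0.42, adjusted p = 0.280).

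Among nuclear receptors outside the RXR partners, 10 of 30 were tested, and 6 fell and 1 rose with IL-25 at 48 h and again at 72 h (medians -1.34 and -1.31). Of all genes, 50.1% and 48.5% were called in either direction at these times. At 4 h 1 rose and 3 fell (median -0.10), beside 40.3% of all genes called in either direction. Rora, a receptor needed for ILC2 development, was higher with IL-25 at 4 h, at 372 against 244 TPM (0.60). At 48 h it was lower with IL-25, at 36.5 against 179 TPM. Of 25 co-regulator genes 24 were tested. At 4 h 3 rose and 6 fell (median -0.07), beside 40.3% of all genes called in either direction. At 48 h 4 rose and 9 fell, and at 72 h 0 rose and 13 fell (medians -0.30 and -0.50), beside 50.1% and 48.5% of all genes called in either direction, among them the coactivator genes Ncoa2 at 48 h (13.0 to 5.89 TPM) and Ncoa1 at 72 h (7.07 to 3.94 TPM). Of 30 genes that make, carry or break down retinoids 12 were tested. At 4 h 4 rose and 4 fell, at 48 h 3 rose and 0 fell, and at 72 h 4 rose and 2 fell (medians -0.05, 0.06 and -0.10). The shares of all genes called at the 3 times were 40.3%, 50.1% and 48.5%. At 48 h Dhrs3, which reduces retinal, rose from 4.38 to 25.2 TPM, and Fabp5, a fatty acid carrier that can bind retinoic acid, from 41.3 to 152 TPM. At 72 h the means without and with IL-25 were 4.17 and 8.23 TPM for Dhrs3 and 42.5 and 105 TPM for Fabp5. At 4 h Aldh1a2, which makes retinoic acid, rose from 8.31 to 21.5 TPM. In KO, limma called 0 genes of these 3 lists in nILC2 and 0 in iILC2 (medians between -0.31 and 0.15). At an unadjusted p under 0.05 they held 3 of 10 other receptors, 7 of 24 co-regulators and 2 of 12 retinoid genes in nILC2, and 0, 2 and 1 in iILC2, beside 1947 and 328 of the 10069 genes tested.

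The genes most like each receptor were taken by Pearson's r of log2(TPM + 1) over the 24 culture libraries, among 7861 genes with a mean of at least 5 TPM. The libraries share their 6 groups, so r is a description. For Rxrg these were Enpp5 (r = 0.976), Nsg2 (0.974) and Slfn2 (0.972). Over the 16 libraries of the genotype experiment, r with Rxrg was 0.783 for Enpp5 and 0.758 for Slfn2, and Nsg2 was not listed. Enpp5 had 30.7 TPM in nILC2 CTRL and 23.4 TPM in KO, and 4.84 and 4.80 TPM in iILC2, so that it shared the difference between the cell groups but not the size of the genotype difference of Rxrg. For Rxra they were Exoc3 (0.889), Sfi1 (0.883) and Pabpc1 (0.870), of which Sfi1 alone kept a high r over the 16 libraries (0.678, beside -0.190 and 0.098). For Rxrb, Prpf8 (0.983), Tsnax and Entpd6 (both 0.974) led, with 0.463, 0.520 and 0.427 over the 16. The closest to Rara was Lpin1 (0.958, and -0.341 over the 16), to Nr1h2 Shisa5 (0.954, 0.210), and to Vdr Ntpcr (0.780, -0.074).

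Between the receptors themselves, Rxrg and Rxra had r = 0.716 over the 24 culture libraries and 0.792 over the 16 of the genotype experiment. Rara and Nr1h2 had 0.831 and 0.451, and Rxrb and Rara 0.808 and 0.079. Rxrg and Rxrb had 0.119 and 0.489. Rxra and Rxrb had 0.515 and 0.607. Among the 15 pairs, Rxrg with Rxra was the only pair over 0.7 in both, a bound not set in advance.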

How the data were processed

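The 6 genes and all lists were chosen with earlier results of these data known. The authors deposited values in TPM, in a matrix of 24 cultured libraries and another of 16 nILC2 and iILC2 libraries. The submitters' processing notes name cutadapt (2.10), STAR (2.7.5c), RSEM (1.3.3) and the build mm10, without roles. The filter that left 10799 and 10176 listed genes is not stated. TPM columns summed to 849733 to 898025, and 9530 to 9941 genes per library reached 1 TPM. TPM keep no read total, so depth is unknown and no counting error was given.

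Groups were taken from titles and labels. On log2(TPM + 1), limma 3.58.1 (R 4.3.3; lmFit and eBayes with trend) was run on each matrix by itself with 1 mean per group, over the 10548 and 10069 genes that reached 1 TPM in 4 or more libraries. Adjusted p-values (Benjamini-Hochberg, all tested genes) under 0.05 were called. Intervals are 95% intervals from limma. Rxrg TPM were also compared by two-sided exact permutation tests (SciPy 1.17.1). The procedure was tested on simulated data. Alternatives were a pseudocount of 0.1 TPM, no filter, a filter of 5 TPM, median-of-ratios and quantile scaling, array weights, a replicate block, only the compared groups, and each library left out. A Y-linked term (whether Uty, Kdm5d, Ddx3y and Eif2s3y summed to at least 5 TPM) was added after the data were seen.

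The labels state no pairing of libraries by number. After removal of group means, same-numbered libraries of nILC2 KO and iILC2 KO correlated at 0.188, 0.102, 0.231 and 0.145. Every other pair of groups had at least 1 number under 0.1. Even so, 18 of 24 same-numbered pairs in the genotype experiment were over 0.1, beside 3 of 60 in culture. Those of nILC2 CTRL and nILC2 KO had 0.125, 0.131, 0.187 and -0.044. The source of this shared variation across genotypes was not tested. Named by rule were the 6 genes throughout, the 3 genes most like each, and up to 4 called genes of each list and comparison that did not overlap and had at least 5 TPM in the higher group; not all are printed. Rarb, Nr1h3, Ncoa1, Enpp5 by group, Pparg in KO and the marker genes were described after their values were seen. Sequences are from RefSeq promoter windows of GRCm38.p6, the assembly of mm10, of which the 250 bases before each start were used; all 6 symbols matched.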

Additional observations from a re-analysis of the deposited data

Results flagged for a closer look

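Of 60 sets of 4 libraries (6 genes in 10 groups), 3 had a library far from the others in TPM, and chance gives about 1 in 20. They were Rxra in nILC2 CTRL, where library 4 was lowest at 3.18 TPM in a group spanning only 3.18 to 3.40 TPM, and Nr1h2 at 48 h without and with IL-25, where library 3 was highest at 85.75 and 49.58 TPM. The Nr1h2 difference at 48 h kept its direction and its call without either of those libraries.

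For 4 genes the effect of IL-25 at 48 h differed from that at 4 h by a limma interaction test. The differences were -1.71 for Rxrg (adjusted p = 5.78e-05), -0.61 for Rara (0.0147), -0.57 for Nr1h2 (0.00158) and 1.42 for Vdr (0.0277). For Vdr the call was lost in 7 of 16 fits that each left out 1 library of these groups, with adjusted p from 0.0549 to 0.0696. Between 72 and 48 h the effect differed for Rara alone among the 6, by 0.68 (adjusted p = 0.0131). The intervals for Rxra were -0.94 to 0.26 between 48 and 4 h and -1.25 to -0.05 between 72 and 48 h, neither called.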

How the results depend on the processing

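With all libraries kept, the IL-25 and KO calls of the RXR genes held under each alternative except the following. For Rxra with IL-25 at 48 h (main value -0.53), the call was lost under the median of ratios (-0.48), quantile normalization (-0.37), array weights (-0.46) and the compared groups alone (-0.53). Rxrb passed at 48 h under quantile normalization (0.36) and at 72 h with a pseudocount of 0.1 TPM (-0.35). The cause was not tested. The RXR sum at 4 h moved under the median of ratios to 48.0 TPM without and 32.5 TPM with IL-25. Uncalled differences changed sign under the median of ratios for Nr1h2 with IL-25 at 4 h (0.000389), Rara with IL-25 at 72 h (0.14), Rxra between 4 and 48 h without IL-25 (0.0037) and Rara between 48 and 72 h without IL-25 (-0.0395, and -0.0012 with array weights). Under quantile normalization those of Rxra (0.10) and Vdr (0.049) with IL-25 at 4 h, Rara with IL-25 at 72 h (0.15), Rara between 48 and 72 h without IL-25 (-0.041) and Vdr in iILC2 against nILC2 of KO mice (0.11) did so.

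Leaving out each library in turn gave, with IL-25 at 4, 48 and 72 h, ranges of -1.99 to -1.67, -3.67 to -3.46 and -3.94 to -3.60 for Rxrg, -0.29 to -0.05, -0.73 to -0.34 and -1.25 to -1.12 for Rxra, and 0.02 to 0.18, 0.11 to 0.18 and -0.42 to -0.19 for Rxrb. In KO of nILC2, of iILC2 and in their average the ranges were -2.49 to -2.20, -1.12 to -0.93 and -1.77 to -1.62 for Rxrg, -0.50 to -0.27, -0.24 to 0.0068 and -0.33 to -0.20 for Rxra, and -0.33 to -0.07, -0.026 to 0.11 and -0.16 to -0.02 for Rxrb. The Rxra call at 48 h was lost in 4 of its 8 fits, and Rxrb at 72 h was called in 1 of 8. Over all 6 genes and comparisons, 863 of 912 such values and 683 of 708 values under other alternatives kept direction and call, and 26 and 10 uncalled ones changed sign. With a library left out these also included Rxrb in the IL-25 effect at 48 against 4 h (-0.035 to 0.13), Rxrg (-0.15 to 0.017), Rara (-0.11 to 0.11) and Vdr (-0.0403 to 0.52) between 48 and 72 h without IL-25, and Vdr with IL-25 at 72 h (-0.14 to 0.42). In nILC2 KO they included Rara (-0.033 to 0.32), Nr1h2 (-0.11 to 0.0029) and Vdr (-0.078 to 0.41), in iILC2 KO Rara (-0.024 to 0.076) and Nr1h2 (-0.019 to 0.058), and in the KO average Rara (-0.00082 to 0.18) and Nr1h2 (-0.044 to 0.0104). The last were Rara in the KO effect difference (-0.29 to 0.064) and in iILC2 against nILC2 of KO mice (-0.0602 to 0.21).

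With a replicate block no call of the 6 genes changed (Rxra in nILC2 KO -0.42, Rxrg in iILC2 KO -1.04), and the genes called in nILC2 KO rose from 155 to 317, in the KO average from 11 to 31 and in the KO effect difference from 0 to 8. In the genotype experiment this block joined same-numbered CTRL and KO libraries. Those of number 1 differed in Y-linked expression (121 TPM in nILC2 CTRL, 0 in nILC2 KO), so the block does not stand for shared mice. The nILC2 KO number was 82 with a pseudocount of 0.1 TPM, 272 under the median of ratios, 275 with array weights, 5 in the compared groups alone and 87 with the Y-linked term. The KO average was 18 under the median of ratios, 43 with array weights and 5 to 161 with a library left out, the highest without nILC2 KO library 1. The KO effect difference was 21 with array weights, 5 with the Y-linked term and 0 to 132 with a library left out, and genes called in iILC2 KO stayed at 0 in all. Between 48 and 72 h without IL-25 the 40 called genes became 26 with a pseudocount of 0.1 TPM, 86 under quantile normalization, 64 with array weights, 3 in the compared groups alone and 11 to 49 with a library left out. The percent of called genes that were higher moved under the median of ratios from 30.8% to 51.8% and 38.3% to 51.0% between 4 and 48 h (without and with IL-25), 75.0% to 31.9% and 42.9% to 53.2% between 48 and 72 h, 35.5% to 58.8% for the IL-25 effect at 72 against 48 h, and 61.3% to 75.0% in nILC2 KO. The permutation tests were not repeated with a library left out, since 4 against 3 cannot reach 0.05. Read totals are not in TPM, so the counting error of Rxra and Vdr, mostly under 3 TPM, is unknown.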
